A study of Canis lupus familiaris with 45 samples.

Results

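THBS1 encodes thrombospondin-1, a large secreted glycoprotein of the extracellular matrix. Its transcript was followed in the left ventricle of dogs as rapid pacing led to heart failure. It was represented by 1 probe set, 1606008_at, the only one annotated to the symbol THBS1 alone, among 23836 probe sets that were not controls. It is 1 of 5278 gene symbols that had a probe set bright enough to be tested. Its position is chromosome 30, 7055241 to 7071904, in the dog assembly UU_Cfam_GSD_1.0. The exon or untranslated region that the probe set covers is not given in the sources used here.

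The 15 dogs were male and age-matched, and each gave transmural left ventricular tissue. They formed 5 groups of 3: Day-0, which were not paced, and the 4 groups called Day-3, Week-1, Week-2 and End-stage, in which the right ventricle was driven at 240 beats per minute for the time in the name. End-stage dogs were paced until haemodynamic measurements showed failure, after 3 to 4 weeks. Whether Day-0 dogs underwent the pacemaker operation is not given in the sources used here. RNA was isolated 3 times from each dog and each isolation had its own array, so that 45 arrays described 15 dogs.

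Thrombospondin-1 is a matricellular protein: it binds matrix, cells and growth factors rather than forming fibres. It is released by activated platelets and made by fibroblasts, endothelial cells, smooth muscle cells and macrophages. Through its receptors CD36 and CD47 it restrains blood vessel growth and nitric oxide signalling, and it can switch latent TGF-beta, a driver of fibrosis, to its active form. In cultured cells the gene responds early to serum and growth factors, and in rodent and dog hearts it is known to be induced by injury and overload.

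The tissue carried the markers of ventricular muscle. All 11 cardiomyocyte markers with a named probe set passed the filter on low signal, and their summed signal per dog ranged from 76527 to 113887 in the paced groups and from 82122 to 122017 in Day-0. In each paced group 0 of the 11 had a mean above that of Day-0, against 45.4% to 50.8% of the probe sets tested. Their median log2 difference ran from -0.19 in Week-1 to -0.10 in Day-3. Without the pair of dogs described next it was -0.05 in Week-1 and 0.0 in End-stage. A pair of dogs, number 1 of Week-1 and number 1 of End-stage, stood apart. A set of 200 probe sets that separate animals was picked for each dog number on the dogs with the other numbers, and arrays were compared among the 5 dogs that share a number. In the other 13 dogs the isolations of a dog had a Pearson r over these probe sets of 0.43 or more, and arrays from different dogs had 0.22 or less. Such values run over probe sets and are descriptive. An array of the same dog was the nearest one for 41 of 45 arrays, and the 4 exceptions came from that pair of dogs. No array was moved or dropped. The THBS1 differences from Day-0, the limma calls and the median r with matrix genes are also given without the pair. Most other results include the pair, as do the steps between paced groups and the values of single genes.

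THBS1 was selected on its log2 signal per dog in the 5 groups and on its correlation over dogs with annotated matrix genes. Its levels and these correlations are therefore described and carry no test. The signal is the array's brightness for the probe set, and all levels below are on the log2 scale, where a difference of 1 is a doubling. The dog is the replicate, and its level is the mean over its 3 arrays. In whole tissue, more cells that make a transcript and more RNA per cell cannot be told apart. In unpaced dogs THBS1 lay at 8.14, 8.79 and 8.34. After 3 days of pacing the 3 dogs stood at 8.60, 9.54 and 9.04. Here 2 dogs were above every Day-0 dog and 1 was inside the Day-0 range.

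After 1 week the values were 9.61, 9.10 and 9.47, and all 3 dogs exceeded the highest Day-0 dog. The Week-2 dogs had 10.27, 10.13 and 10.21. These 3 were the highest of the 15 and lay closer together than the dogs of any other group. End-stage dogs had 9.53, 9.59 and 10.03, below all Week-2 dogs and above all Day-0 dogs.

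**Figure D1:**
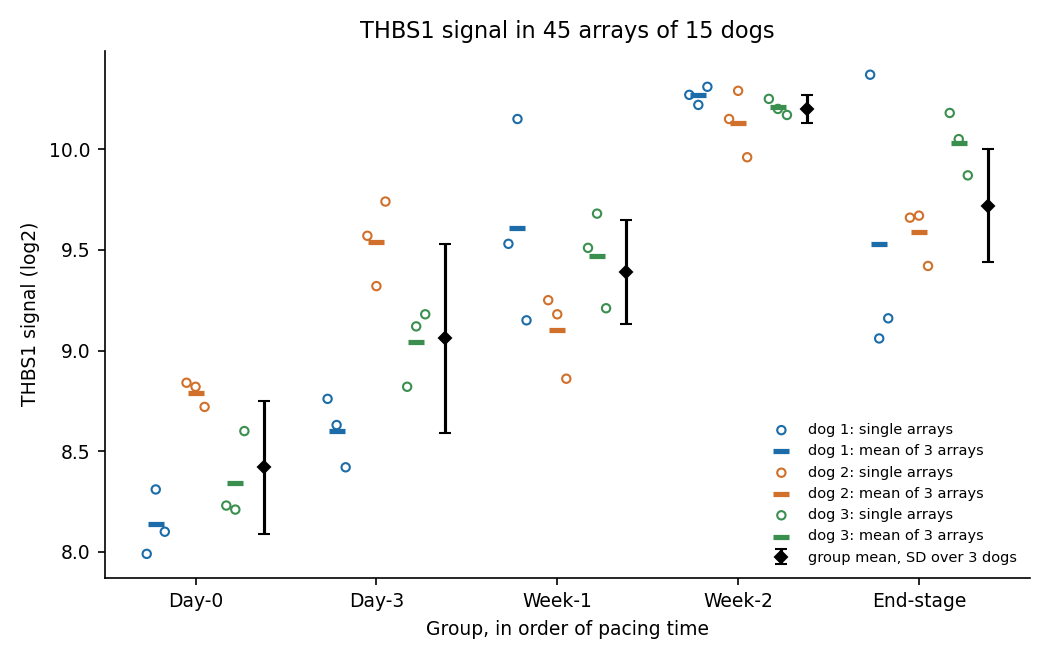
Log2 signal of THBS1 (vertical axis) by group in order of pacing time (horizontal axis). Open circles are single arrays, short bars are the mean of the 3 arrays of a dog (colours give the dog number), and black diamonds are group means with the SD over 3 dogs. The Week-2 dogs lie between 10.13 and 10.27, above every dog of the other groups, and the Day-0 dogs lie between 8.14 and 8.79.

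Averaged over dogs, the level was 8.42 ± 0.33 in Day-0, 9.06 ± 0.47 in Day-3, 9.39 ± 0.26 in Week-1, 10.20 ± 0.07 in Week-2 and 9.72 ± 0.28 in End-stage (SD, n = 3 dogs each). As geometric mean signal this is 343, 535, 671, 1178 and 841 in the same order of groups. The order of the group means was therefore Day-0, Day-3, Week-1, End-stage, Week-2, from low to high. Of the neighbours in this order, Day-0 and Day-3 overlapped, as did Day-3 and Week-1, and Week-1 and End-stage. End-stage and Week-2 did not overlap, with the nearest dogs at 10.03 in End-stage and 10.13 in Week-2.

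Relative to Day-0, THBS1 lay higher by 0.64 in Day-3, 0.97 in Week-1, 1.78 in Week-2 and 1.29 in End-stage on the log2 scale, each with a standard error of 0.23 from the linear model. These are ratios of 1.56, 1.96, 3.43 and 2.45, all against the same 3 Day-0 dogs. Only 11 of the 14301 probe sets tested had a larger rise than THBS1 at Week-2, 7 of them with a gene symbol. The number with a larger rise was 389 at Day-3, 109 at Week-1 and 36 at End-stage. These ranks describe the values the gene was chosen for.

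Between consecutive paced groups the largest step was from the first to the second week. Week-2 lay above Week-1 by 0.81, a ratio of 1.75, with all 9 pairs of dogs in this direction. Week-1 lay above Day-3 by 0.33, with 7 of 9 pairs in this direction. End-stage lay below Week-2 by a log2 difference of -0.49, with none of 9 pairs higher in End-stage. The 0.07 SD of the Week-2 dogs comes from 3 animals and gives little precision on the true spread of that group.

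The single arrays showed more scatter than the dog means, and more groups overlapped. All 9 arrays of Week-1, all 9 of Week-2 and all 9 of End-stage had a higher THBS1 signal than the brightest Day-0 array (8.84), and 5 of 9 Day-3 arrays did. The 9 Week-2 arrays ran from 9.96 to 10.31, and the 9 Day-0 arrays from 7.99 to 8.84. Arrays of Week-1 (8.86 to 10.15) and End-stage (9.06 to 10.37) overlapped those of Week-2, and the brightest array was from End-stage. Day-3 arrays ran from 8.42 to 9.74. Between isolations of a dog the SD of THBS1 was 0.28, against a median of 0.31 over the probe sets tested. Between dogs of a group it was 0.31, against a median of 0.27 for the probe sets tested. Of the probe sets tested, 43.9% had a smaller SD than THBS1 between isolations and 60.9% between dogs. The medians include dim probe sets, so THBS1 was not compared at like brightness.

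Much of the scatter between isolations came from the dogs whose arrays did not group by dog. The 3 isolations of Week-1 dog 1 gave 9.53, 10.15 and 9.15, a range of 1.00. Those of End-stage dog 1 gave 10.37, 9.06 and 9.16, a range of 1.30. In the other 13 dogs the range over isolations was at most 0.47, and without these 2 dogs the SD between isolations was 0.17.

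The high THBS1 arrays of these 2 dogs were also the ones that matched each other. Isolation 2 of Week-1 dog 1 and isolation 1 of End-stage dog 1 correlated at 0.77 over the 200 probe sets, and they were the 2 arrays with THBS1 above 10 among the 6. The other 4 arrays of these dogs correlated with each other at 0.72 to 0.95 and had THBS1 between 9.06 and 9.53. Correlations between the 2 sets of arrays were below 0, from -0.42 to -0.25. Without these 2 dogs the difference from Day-0 was 0.86 at Week-1 and 1.39 at End-stage, against 0.97 and 1.29 with them. Whether these arrays were exchanged between dogs was not tested.

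**Figure D2:**
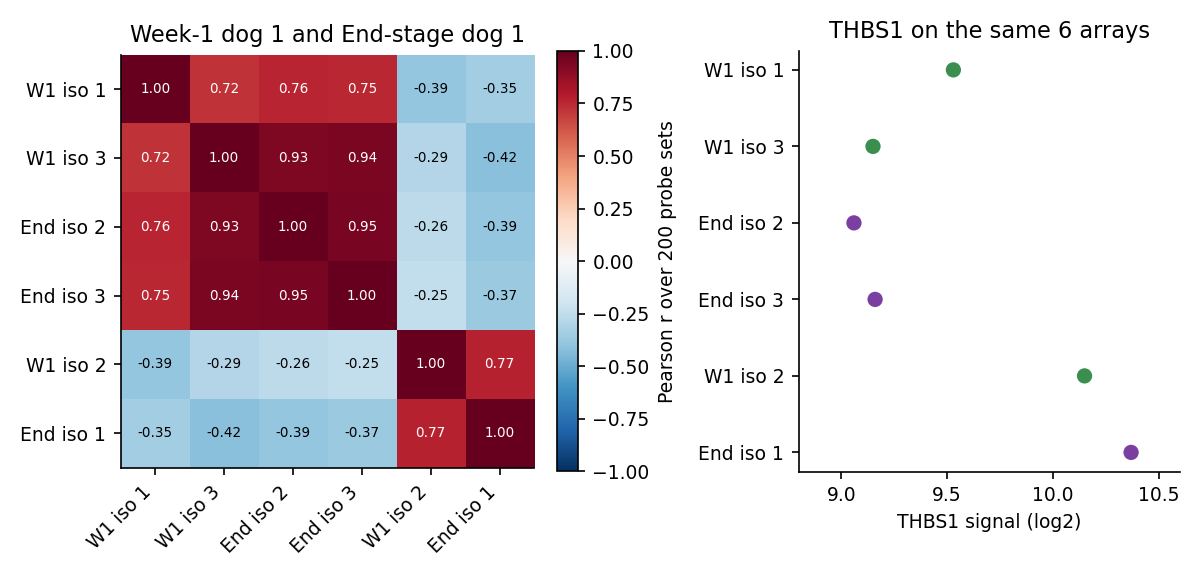
Left, Pearson r over 200 probe sets between the 6 arrays of Week-1 dog 1 (W1) and End-stage dog 1 (End), with isolation numbers (iso) on both axes. Right, the THBS1 log2 signal of the same 6 arrays. Isolation 2 of the Week-1 dog and isolation 1 of the End-stage dog correlate at 0.77 and have THBS1 at 10.15 and 10.37, while the other 4 arrays lie between 9.06 and 9.53.

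RNA quality was read from 2 pairs of control probe sets. The ratio of the 3-prime to the 5-prime GAPDH control probe sets, which moves when RNA is degraded, ranged over dogs from 0.932 to 0.982 in Day-0, from 0.880 to 1.02 in Day-3, from 0.913 to 0.967 in Week-1, from 0.889 to 0.961 in Week-2 and from 0.923 to 0.977 in End-stage. The same ratio for actin ranged from 0.121 to 0.227 in Day-0, 0.167 to 0.194 in Day-3, 0.122 to 0.244 in Week-1, 0.174 to 0.266 in Week-2 and 0.171 to 0.229 in End-stage. For both ratios every paced group overlapped Day-0, and the actin ratio reached its highest value in Week-2, where THBS1 was also highest. The part of RNA quality in the THBS1 level was not tested.

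Markers of the cells known to make or store thrombospondin-1 were read from the same arrays. Of 16 platelet and megakaryocyte markers, 5 had a named probe set. Only ITGA2B passed the filter, while ITGB3, GP1BA, GATA1 and SELP lay below it. Their summed signal per dog ranged from 97.6 to 132 in Day-0, 90.6 to 144 in Day-3, 96.4 to 125 in Week-1, 100 to 153 in Week-2 and 99.3 to 147 in End-stage, so that every paced group overlapped Day-0. The most used platelet markers, PF4 and PPBP, had no named probe set.

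Fibroblast markers, 7 tested of 8 with a named probe set, had summed signals from 11400 to 14994 in Day-0, 11697 to 18474 in Day-3, 11515 to 19162 in Week-1, 12803 to 14745 in Week-2 and 10887 to 16526 in End-stage. The Week-2 range lay inside that of Day-0, and the other paced groups reached above it. The median log2 difference over the 7 genes was 0.50 in Day-3, 0.44 in Week-1, 0.40 in Week-2 and 0.22 in End-stage. Macrophage markers, 9 tested of 11, ran from 811 to 1077 in Day-0, 802 to 1669 in Day-3, 742 to 1489 in Week-1, 954 to 1105 in Week-2 and 925 to 1284 in End-stage, and each paced group reached above Day-0. For the 7 endothelial markers the summed signal was 6003 to 6997 in Day-0, 6008 to 6906 in Day-3, 5448 to 5682 in Week-1, 6438 to 7001 in Week-2 and 6037 to 7216 in End-stage. The Week-1 dogs lay wholly below Day-0. Smooth muscle and pericyte markers, all 5 tested, ran from 6380 to 8284 in Day-0, 5731 to 7924 in Day-3, 6070 to 8466 in Week-1, 5884 to 6498 in Week-2 and 5160 to 5446 in End-stage. The End-stage dogs thus lay wholly below the Day-0 dogs for smooth muscle. Neutrophil markers (43.2 to 85.3 in the paced groups, 48.9 to 67.1 in Day-0) and lymphocyte markers (149 to 235 in the paced groups, 176 to 274 in Day-0) were dim. The part of any of these cells in the THBS1 level was not tested.

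Genes tied to thrombospondin-1 were then examined in lists for its family, receptors, TGF-beta, turnover, vessel growth, matrix, early response, mechanical signalling and the endoplasmic reticulum. Together these lists held 101 tested genes besides THBS1. The test was a linear model over all 14301 probe sets (limma), with the Benjamini-Hochberg adjusted p of a probe set below 0.05 as the threshold. At this threshold 0 of the 101 genes passed at Day-3, against 0% of all probe sets, and 19 had an unadjusted p under 0.05 (8.07% of all). At Week-1 it was 0 of 101, against 0.028% of all probe sets, with 22 under an unadjusted 0.05 (9% of all). Week-2 had 0 of 101, against 0.0839%, with 33 such genes (11.2% of all). End-stage had 0 of 101, against 0.014%, with 24 such genes (8.23% of all). Without the 2 dogs whose arrays matched, the limma count was again 0 in each of the 4 comparisons.

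The direction of the list genes leaned upward. The estimate was above 0 for 70 of the 101 genes at Day-3 (50.8% of all probe sets), 69 at Week-1 (45.4%), 75 at Week-2 (49.2%) and 69 at End-stage (45.7%). At Week-2 they had a median log2 difference of 0.26, while the median over all probe sets was -0.01. For 28 of them, or 27.7%, the 3 Week-2 dogs all lay above the 3 Day-0 dogs, against 8.08% of all probe sets. At Day-3 this held for 21 genes (6.16% of all probe sets), at Week-1 for 19 (6.73%) and at End-stage for 26 (6.34%). All 3 paced dogs lay below all Day-0 dogs for 4 genes at Day-3 (6.44% of all probe sets), 6 at Week-1 (9.4%), 6 at Week-2 (9.21%) and 3 at End-stage (7.94%). The lists were chosen with earlier results of these data known, so these counts are no independent support.

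Of the other thrombospondins, only COMP could be tested. THBS2, the closest relative of THBS1, had a probe set below the filter, with log2 signals between 2.37 and 5.52 that overlapped between all groups. COMP, the cartilage thrombospondin, was measured above the filter and differed from Day-0 by 0.12 in Day-3, 0.13 in Week-1, 0.21 in Week-2 and -0.03 in End-stage (SE 0.20, limma adjusted p = 0.774 at Week-2). THBS3 and THBS4 had no named probe set and were not analysed here.

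Of the receptors and binding partners, 10 were tested and 0 passed in any comparison by limma. The unadjusted p was under 0.05 for 3 of them at Day-3, 5 at Week-1, 3 at Week-2 and 4 at End-stage. Over all probe sets the share under 0.05 was 8.07%, 9%, 11.2% and 8.23% in these comparisons. Integrin beta-5 (ITGB5), which pairs with the alpha-V integrin to bind matrix proteins, came closest. Its log2 signal was 11.38, 11.21 and 11.33 in the Week-1 dogs, against 10.52, 10.37 and 10.45 in the Day-0 dogs. The groups did not overlap, and the difference was 0.86 (SE 0.14, ratio 1.81, limma adjusted p = 0.0512). ITGB5 was highest at Week-1 and stood at 0.64 above Day-0 at Week-2, where THBS1 was highest. Its partner ITGAV differed by 0.48 at Week-1 and by 0.60 at End-stage (SE 0.17, limma adjusted p = 0.257 at End-stage).

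CD36, the fatty acid transporter that also carries the antiangiogenic signal of thrombospondin-1 in endothelial cells, lay on the opposite side. Its values were 8.98, 8.71 and 8.71 in Week-1, against 9.45, 9.79 and 9.65 in Day-0. All 3 paced dogs were below all 3 unpaced dogs at Week-1, Week-2 and End-stage. The log2 difference was -0.83 at Week-1, -0.44 at Week-2 and -0.70 at End-stage (SE 0.17, limma adjusted p = 0.1, 0.328 and 0.2). CD47, the other main receptor, was named after its values were seen. It overlapped Day-0 in all 4 paced groups, with differences from 0.03 in Week-1 to 0.30 in End-stage (SE 0.14).

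Calreticulin (CALR), a chaperone of the endoplasmic reticulum that at the cell surface forms a thrombospondin-1 receptor with LRP1, lay above all Day-0 dogs in all 12 paced dogs. The differences were 0.73 in Day-3, 0.84 in Week-1, 0.70 in Week-2 and 0.91 in End-stage (SE 0.23, limma adjusted p = 0.2 at End-stage). The elevation was already as large at Day-3 as at Week-2, unlike that of THBS1. FN1, fibronectin, which binds thrombospondin-1 in the matrix, differed by 0.78 in Day-3 and 0.56 in Week-2 with a wide error (SE 0.38).

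**Figure D3:**
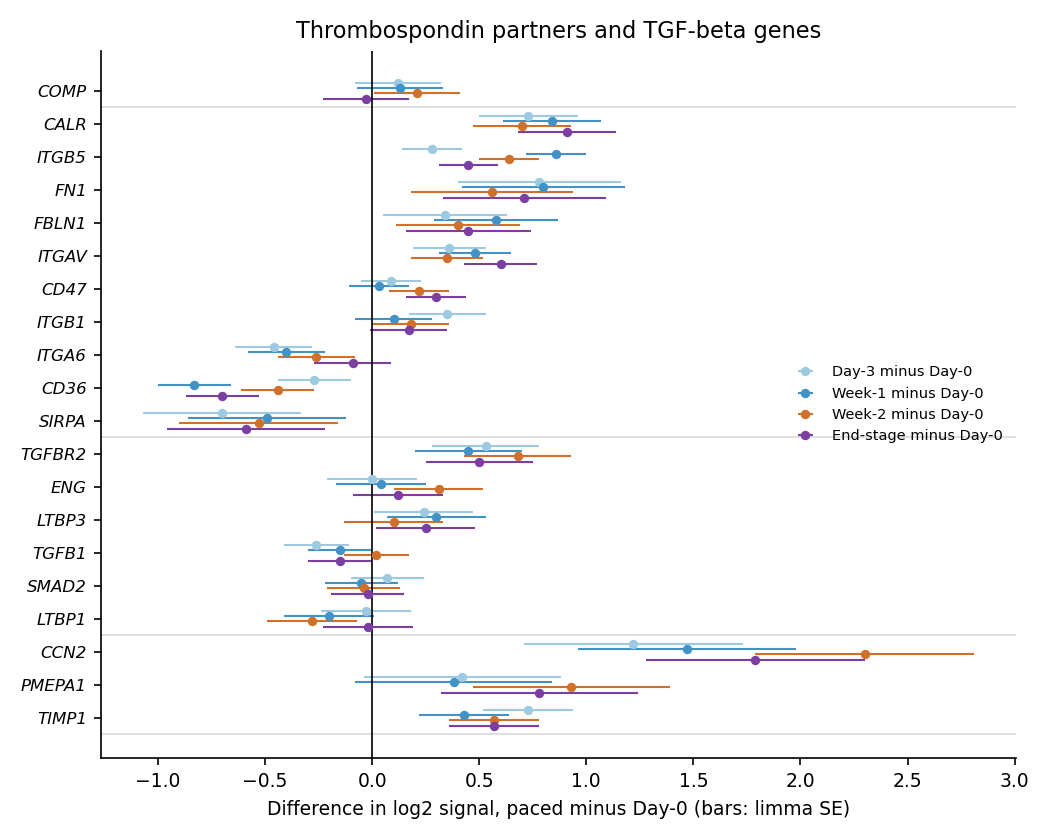
Difference in log2 signal, paced minus Day-0 (horizontal axis), for 20 genes in 4 lists: the family member COMP, receptors and partners, TGF-beta ligands and receptors, and TGF-beta targets. Points are the 4 paced groups by colour and bars are limma standard errors. CALR and CCN2 lie right of 0 and CD36 lies left of 0 in every paced group, while TGFB1 lies within 0.26 of 0.

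TGF-beta is the growth factor most often linked to thrombospondin-1. The ligand gene TGFB1 had a log2 signal of 7.51, 7.98 and 7.63 in Week-2 and of 7.82, 7.79 and 7.44 in Day-0, which overlapped. Its difference from Day-0 was -0.26 in Day-3, -0.15 in Week-1, 0.02 in Week-2 and -0.15 in End-stage (SE 0.15). The receptor gene TGFBR2 differed by 0.53, 0.45, 0.68 and 0.50 over the same groups (SE 0.25, limma adjusted p = 0.317 at Week-2), with Week-2 and End-stage dogs all above Day-0. Of the 6 tested genes of this list 0 passed. An unadjusted p under 0.05 was found for 1, TGFBR2 at Week-2, against 11.2% of all probe sets.

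Of 11 listed TGF-beta targets 3 were tested: CCN2, TIMP1 and PMEPA1. In limma 0 of the 3 passed in any comparison, and 2, 1, 2 and 2 had an unadjusted p under 0.05 from Day-3 to End-stage. Over all probe sets the share under 0.05 was 8.07%, 9%, 11.2% and 8.23%. Estimates were above 0 for all 3 in every comparison (45.4% to 50.8% of all probe sets). However, PMEPA1, an inhibitor of TGF-beta signalling that the pathway itself induces, overlapped Day-0 at Week-1 and Week-2. At Day-3 and End-stage all its paced dogs lay above all Day-0 dogs. CCN2, the connective tissue growth factor and a classical target of TGF-beta and of mechanical stress, had 10.65, 11.48 and 12.30 in Week-2, against 9.12, 9.03 and 9.37 in Day-0. The groups did not overlap and differed by 2.30 (SE 0.51, ratio 4.94, limma adjusted p = 0.0959). TIMP1, an inhibitor of matrix proteases, differed by 0.73 in Day-3 and 0.57 in Week-2 (SE 0.21, limma adjusted p = 0.319 at Week-2). In TIMP1 all 12 paced dogs exceeded all Day-0 dogs.

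Proteases and inhibitors of thrombospondin turnover gave 5 tested genes, of which 0 passed in limma. At Week-2, 2 had an unadjusted p under 0.05, TIMP1 and TIMP3, against 11.2% of all probe sets. This count was 1 at Day-3, 0 at Week-1 and 1 at End-stage, against 8.07%, 9% and 8.23%. TIMP3 differed by -0.45 at Week-2 (SE 0.19) and MMP2, a gelatinase that binds thrombospondins, by -0.61 (SE 0.40). ADAMTS1, which cleaves thrombospondin-1, was not analysed here because it had no named probe set.

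On the side of vessel growth, the angiogenic factor VEGFA lay below Day-0 in all 12 paced dogs. It stood at 7.80, 8.11 and 7.5 in Week-1 and at 8.44, 8.32 and 8.59 in Day-0. The difference was -0.46 in Day-3, -0.65 in Week-1, -0.48 in Week-2 and -0.61 in End-stage (SE 0.20, limma adjusted p = 0.290 at Week-1). NOS3, the endothelial nitric oxide synthase, differed by -0.38 in Day-3 and by 0.08 in End-stage (SE 0.18). GUCY1B1 lay wholly above Day-0 at Day-3 and End-stage, by 0.55 and 0.45 (SE 0.21, limma adjusted p = 0.514 and 0.609). Of the 5 tested genes of this list 0 passed in limma, and 2, 1, 1 and 1 had an unadjusted p under 0.05 from Day-3 to End-stage. Over all probe sets the share under 0.05 was 8.07%, 9%, 11.2% and 8.23%. Estimates were above 0 for 1 of the 5 genes at Day-3 and 2 at End-stage.

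Of the 53 matrix genes tested, 0 passed in any comparison by limma. From Day-3 to End-stage, 7, 7, 15 and 11 had an unadjusted p under 0.05. Over all probe sets the share under 0.05 was 8.07%, 9%, 11.2% and 8.23%. The smallest p were those of LOXL2, CCN2, CILP and ASPN. LOXL2, a collagen cross-linking enzyme, lay higher by 0.71 in Day-3, 0.64 in Week-1, 0.75 in Week-2 and 0.83 in End-stage (SE 0.17, adjusted p = 0.178 at End-stage). It was near its full height at Day-3, whereas CILP and ASPN climbed later. CILP, a matrix protein first known from cartilage, differed by 0.61 in Day-3 and 1.42 in Week-2 (SE 0.34, adjusted p = 0.104 at Week-2). ASPN, the small collagen-binding proteoglycan asporin, differed by 0.42 in Day-3 and 0.96 in Week-2 (SE 0.27, adjusted p = 0.173 at Week-2).

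The likeness of other genes to THBS1 was measured as the Pearson r of log2 signal over the 15 dogs, which share the 5 groups. This is a description without a p value, because correlation with matrix genes was part of the rule that chose the gene. Of 53 matrix genes tested, 41 had r above 0 and 12 (22.6%) had r above 0.5. Of all 5277 symbols compared, 5.53% had r above 0.5. The median r was 0.25 over the matrix genes and -0.03 over all symbols. Without Week-1 dog 1 and End-stage dog 1 these medians were 0.34 and -0.03.

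Closest among matrix genes were CCN2 and ASPN, both with r = 0.84 (rho = 0.78 and 0.75), then CILP at 0.79, CCN3 at 0.69, P4HA2 at 0.67 and LOXL2 at 0.65. CCN3 is a relative of CCN2, and P4HA2 is a collagen prolyl hydroxylase. At the other end were LAMB2 at -0.68, TIMP3 and MMP2 at -0.33 and VTN at -0.26. LAMB2 and VTN encode laminin beta-2, of basement membranes, and vitronectin.

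**Figure D4:**
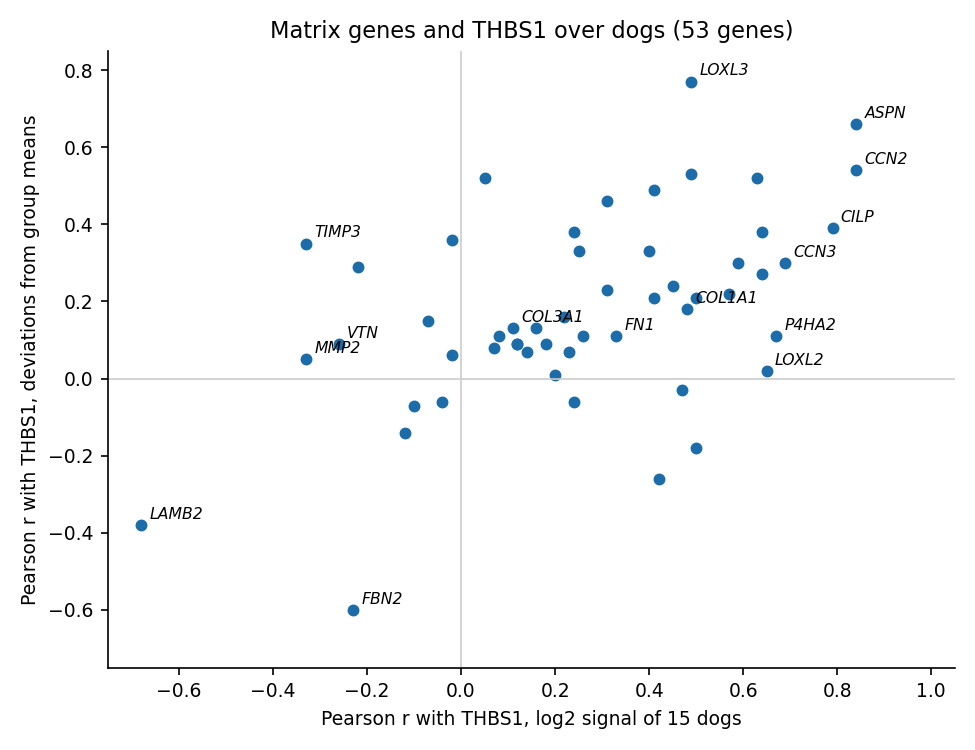
Each point is 1 of 53 matrix genes. The horizontal axis is its Pearson r with THBS1 over 15 dogs, and the vertical axis the r of their deviations from group means. ASPN and CCN2 lie high on both axes (0.84 and 0.66, 0.84 and 0.54), LOXL2 has 0.65 on the first and 0.02 on the second, and LAMB2 lies lowest on the first at -0.68.

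Among the fibrillar collagens, COL1A1 had r = 0.48 and COL3A1 r = 0.11. The median r of the matrix list was lower when unpaced dogs were left out. Without Day-0 dogs 1 and 3, the 2 dogs farthest from the median THBS1 level, it was 0.08, and over the 12 paced dogs alone 0.09. Over all symbols the medians were -0.04 and -0.02. Both choices also narrow the range of THBS1, which can lower r, so they cannot show where the likeness comes from. CCN2 kept 0.78 and 0.73 under these 2 choices, ASPN 0.75 and 0.71, CILP 0.70 and 0.65, and P4HA2 0.80 and 0.75. LOXL2 dropped to 0.31 and 0.07.

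A second form of likeness removes the pacing pattern by taking each dog's deviation from its group mean. In this form the median r of the 53 matrix genes was 0.15, and 6 of them (11.3%) exceeded 0.5, against 4.72% of all symbols. These 6 were LOXL3 (0.77), ASPN (0.66), CCN2 (0.54), COL4A2 (0.53), FBN1 (0.52) and SPARCL1 (0.52). For LOXL2 this r was 0.02. For CCN2, only the Day-3 dogs ranked as in THBS1: dog 1 was the lowest of the 3 (8.60 for THBS1, 8.95 for CCN2) and dog 2 the highest (9.54 and 11.64). In Week-2, dog 1 was the highest of the 3 for THBS1 (10.27) and the lowest for CCN2 (10.65). In Day-0, dog 2 was the highest for THBS1 (8.79) and the lowest for CCN2 (9.03). In Week-1 and End-stage the highest dog also differed between the genes.

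The same ladder of group means recurred in few matrix genes. Week-2 was highest and Day-0 lowest in 13 of 53 (24.5%), against 7.28% of all symbols. The complete order of THBS1, Day-0 below Day-3, Week-1, End-stage and Week-2, was found in 5 of 53 (9.43%) and in 1.76% of all symbols. These 5 were ASPN, CCN2, CCN3, COL1A1 and P4HA2.

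Over all symbols, the 8 most like THBS1 were ERRFI1 and CCL2 (both r = 0.88), CCN2 and ASPN (both 0.84), WLS (0.83), CLTC (0.82), TUBB6 (0.81) and LOC485338 (0.80). ERRFI1 is a feedback inhibitor of the EGF receptor, CCL2 a chemokine that attracts monocytes, WLS a carrier that secretes Wnt proteins, CLTC the clathrin heavy chain and TUBB6 a beta tubulin. For ERRFI1 the dogs stood at 6.09, 6.32 and 6.42 in Week-2, against 5.50, 5.36 and 5.14 in Day-0. CCL2 had 7.60, 7.58 and 7.69 in Week-2 and 6.26, 5.97 and 5.82 in Day-0. Its SD among Week-2 dogs was 0.06, as narrow as that of THBS1. The 4 most opposed were CAMLG (-0.90), LOC480784 (-0.87), and RCL1 and DCTN6 (both -0.83).

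CAMLG encodes a factor that inserts tail-anchored proteins in the endoplasmic reticulum membrane, RCL1 takes part in ribosomal RNA processing, and DCTN6 is a dynactin subunit. The spread of CAMLG was small: its group mean was 7.68 in Week-2, against 8.13 in Day-0. The 6 symbols most like THBS1 in deviations from group means were RNFT1 (0.88), ZNFX1 (0.85), ITPR2 and NUP50 (both 0.83), CORO2A (0.82) and MTREX (0.80). None of these is a matrix gene of the list, and RNFT1, ITPR2 and NUP50 had r of at most 0.14 with THBS1 in the levels.

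**Figure D5:**
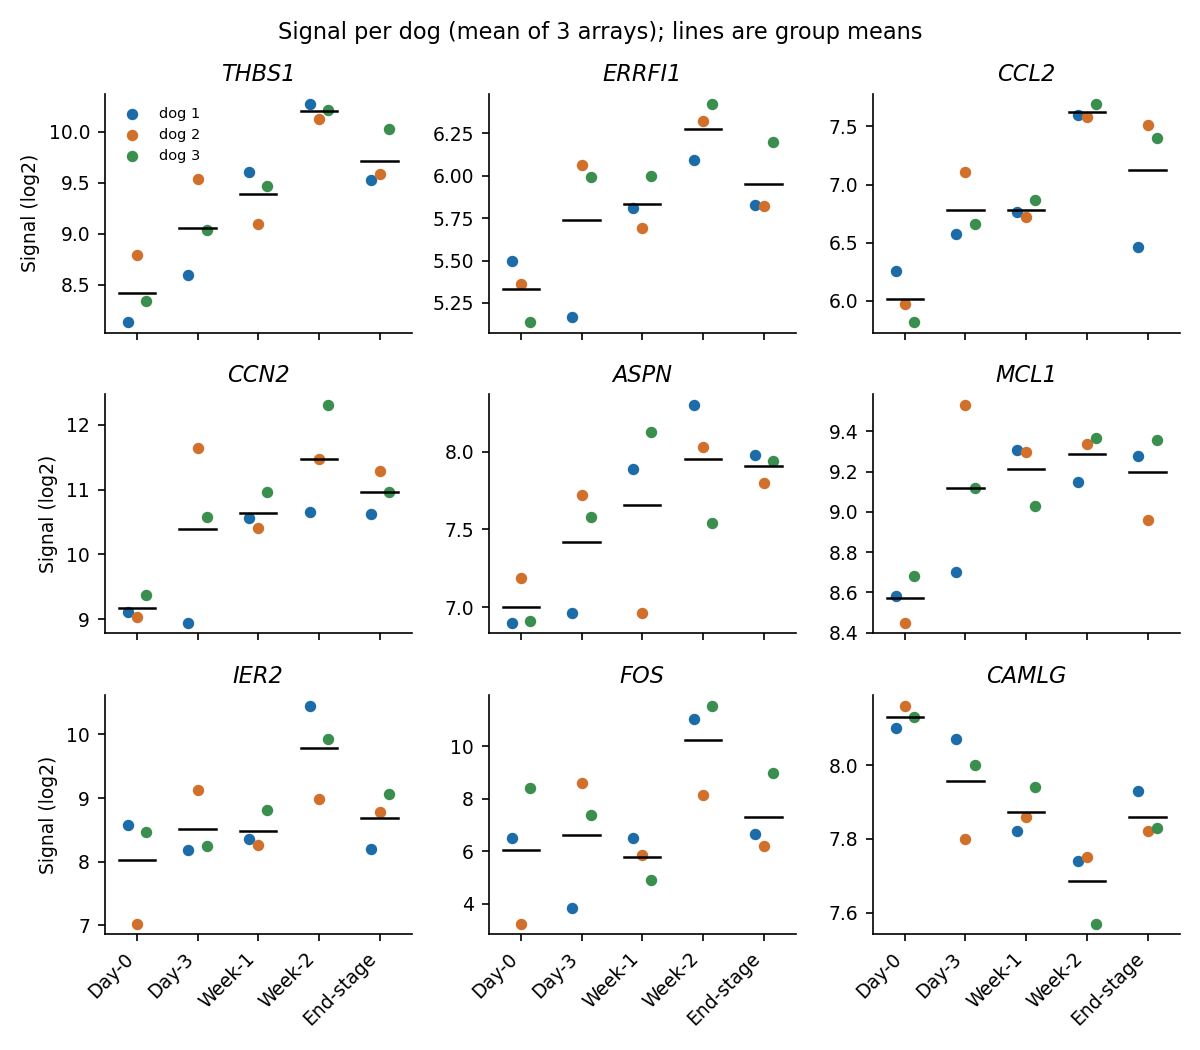
Log2 signal per dog (vertical axes, mean of 3 arrays, each panel with its own scale) by group in order of pacing time, for THBS1 and 8 other genes. Lines are group means and colours give the dog number. At Week-2 THBS1 lies between 10.13 and 10.27 and CCL2 between 7.58 and 7.69, whereas CCN2 spreads from 10.65 to 12.30 and FOS from 8.14 to 11.51.

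Immediate early genes, the transcription factors and regulators with which THBS1 shares its quick response to serum, gave 10 tested members. Of these, 0 passed in any comparison by limma, and 2, 2, 6 and 1 had an unadjusted p under 0.05 from Day-3 to End-stage. The share of all probe sets under 0.05 was 8.07%, 9%, 11.2% and 8.23%. All 10 Week-2 estimates were above 0 (49.2% of all probe sets), with a median of 1.16. The median was 0.12 at Day-3, -0.02 at Week-1 and 0.49 at End-stage. IER2 stood at 10.44, 8.98 and 9.93 in Week-2, against 8.58, 7.03 and 8.46 in Day-0 (difference 1.76, SE 0.42, limma adjusted p = 0.102). JUNB, a subunit of the AP-1 factor, differed by 1.33 (SE 0.36, adjusted p = 0.143). The median Pearson r of the 10 members with THBS1 over dogs was 0.60, and 6 had r above 0.5 (5.53% of all symbols). In deviations from group means the median r was 0.32, and 3 members exceeded 0.5 (4.72% of all symbols).

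Week-2 dog 2 was the lowest of the 3 for IER2 and JUNB. It was also the lowest for THBS1, though close to the others. For FOS, added after its values were seen, dog 2 lay further below the others. The FOS signal stood at 11.04, 8.14 and 11.51 in Week-2, against 6.5, 3.25 and 8.42 in Day-0, and the groups overlapped. MCL1, a survival factor of the BCL2 family, was the member most like THBS1 over all 15 dogs (r = 0.78). Over the 12 paced dogs alone its r was 0.56, below that of other members such as FOS (0.82), IER2 (0.80) and DUSP1 (0.79). All 12 paced dogs had more MCL1 than any Day-0 dog, with differences of 0.55 in Day-3, 0.65 in Week-1, 0.72 in Week-2 and 0.63 in End-stage (SE 0.18, adjusted p = 0.115 at Week-2). It had reached most of its height by Day-3, where THBS1 had not.

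Genes tied to the mechanical regulators YAP, TEAD and SRF gave 9 tested members, with 0 passing in limma. From Day-3 to End-stage, 3, 3, 4 and 2 had an unadjusted p under 0.05 (8.07%, 9%, 11.2% and 8.23% of all probe sets). The estimate was above 0 for 6, 7, 6 and 6 of them (50.8%, 45.4%, 49.2% and 45.7% of all probe sets). CCN1, a matricellular relative of CCN2, differed by 1.69 at Week-2 (SE 0.52, adjusted p = 0.202), with values of 7.80, 7.70 and 9.99 in Week-2 and 6.12, 6.63 and 7.66 in Day-0. LATS1, a kinase that restrains YAP, differed by 1.18 (SE 0.35, adjusted p = 0.189). Its Week-2 dogs stood at 5.21, 5.75 and 4.82, and its Day-0 dogs at 4.48, 4.0 and 3.75. These Day-0 levels are dimmer than the filter on mean signal, which LATS1 passed through its brighter groups. The LATS1 difference is thus taken against a signal near background. YAP1 itself differed by 0.27 (SE 0.12, adjusted p = 0.443). ANKRD1, named after its values were seen, went the other way, with r = -0.46 with THBS1. It differed by -0.35 at Week-2, where it overlapped Day-0. At End-stage it differed by -0.63 and lay wholly below Day-0 (SE 0.29, limma adjusted p = 0.598).

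Endoplasmic reticulum stress genes were listed because thrombospondins act on the stress sensor ATF6 in mouse heart muscle. Of 13 tested, 0 passed in limma in any comparison, and 6, 6, 7 and 7 had an unadjusted p under 0.05 from Day-3 to End-stage. Over all probe sets the share under 0.05 was 8.07%, 9%, 11.2% and 8.23%. XBP1, a transcription factor of the unfolded protein response, had r = 0.76 with THBS1. It stood at 9.43, 9.68 and 9.73 in Week-2, against 9.02, 8.85 and 8.99 in Day-0 (difference 0.66, SE 0.16, adjusted p = 0.115). For the disulfide isomerase PDIA6 the difference was 0.58 (SE 0.13, adjusted p = 0.0959) and r was 0.70. PDIA4, another such enzyme, was furthest from Day-0 at Day-3, at 0.73 (SE 0.16, adjusted p = 0.246). The median r of the list fell to 0.01 when deviations from group means were used, against 0.44 for levels.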

How the data were processed

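Left ventricular RNA of 15 dogs was measured on 45 single-colour arrays. The submitters' processing notes name GCOS 1.4 and MAS5. The authors deposited linear intensity values that had been scaled per array: the mean without the lowest and highest 2% was 150.02 to 150.03 on every array, and the median signal 33.3 to 48.5. MAS5 signals near background are noisy. Precision is limited by the number of dogs.

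The 77 control probe sets were left out. Dog levels are means of log2 signal over 3 arrays. A filter dropped the dimmest 40% of probe sets (mean signal under 22.8). The remaining 14301 entered limma 3.58.1 in R 4.3.3 (group means over 15 dogs, eBayes with intensity trend, Benjamini-Hochberg). The fit was tested on simulated data. Genes were named from the array's annotation, updated by gene ID from RefSeq: 10549 probe sets had 1 symbol, 138 several and 13149 none. A gene was represented by its brightest probe set.

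The gene and all lists were chosen with earlier results of these data known. Named were, from each list, up to 4 genes with the smallest p in any comparison with Day-0; the 8 symbols with the highest r with THBS1, the 4 with the lowest and the 6 with the highest r of deviations; and of the matrix genes the 6 highest and 4 lowest. Other genes were named after their values were seen. The labels call isolations technical replicates and dogs biological replicates. Alternatives in scaling, filter, averaging, isolations, dogs and block are given in the closing section. Dogs sharing a number were not taken as paired, since the correlations of their deviations between a paced group and Day-0 were not all above 0.1 in any comparison.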

Additional observations from a re-analysis of the deposited data

How the results depend on the processing

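The THBS1 difference from Day-0 kept its sign and moved by less than the SD between dogs under all 20 alternatives per comparison. It lay between 0.40 and 0.87 at Day-3, 0.82 and 1.15 at Week-1, 1.64 and 1.96 at Week-2, and 1.08 and 1.48 at End-stage; no second THBS1 probe set was there to try. The median r with matrix genes lay between 0.08 and 0.38 over all 27 alternatives. The lowest value, 0.08, came without Day-0 dogs 1 and 3. Over the 12 paced dogs alone, a choice added after seeing the data, the median r was 0.09. Under the other alternatives it was 0.15 to 0.38. It was 0.18 to 0.38 without 1 dog.

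Counts of probe sets past the threshold varied, and the cause was not tested. At Day-3 (0 as reported) it was 1 with linear means per dog or without isolation 2. It was 273 when the 45 arrays were fitted together with the dog as a random effect (below, all arrays). That fit counts isolations as well as dogs and uses a common correlation between isolations for all probe sets. Its counts are therefore not on the same footing as those from dog means. At Week-1 (4) quantile normalisation gave 13 and median centring 1; it was 8 with linear means, 14 with 32 added to the signal, 7 without a filter, with a 20% filter or with the 6 dogs alone, 0 without the intensity trend, without isolation 1 or 2 or without the 2 dogs whose arrays matched, and 377 with all arrays. At Week-2 (12) quantile normalisation gave 24 and median centring 4; it was 19 with 32 added or without isolation 2, 2 without the trend, 6 without isolation 1, 40 with the 6 dogs alone and 483 with all arrays. At End-stage (2) it was 0 after quantile normalisation or median centring, with no filter or a 20% filter, without the trend or without isolation 1. It was 4 and 5 without isolations 2 and 3, 11 without the 2 dogs, 6 with the 6 dogs alone and 322 with all arrays. Without 1 dog the counts ran from 0 to 23 at Day-3, 0 to 0 at Week-1, 0 to 20 at Week-2 and 0 to 6 at End-stage; the highest came without Day-3 dog 1, Week-2 dog 3 and End-stage dog 1, and Week-2 had 0 without Week-2 dog 2.

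With the dog number as a replicate block the count was 0 at Day-3, 17 at Week-1, 88 at Week-2 and 0 at End-stage, and the THBS1 differences were unchanged at 0.64, 0.97, 1.78 and 1.29. The labels give no shared litter or day for a number. Deviations of same-numbered dogs correlated at 0.0446, 0.0291 and 0.0400 between Week-2 and Day-0, and at -0.0846 to 0.168 in the other comparisons.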
